A study of Mus musculus with 229 samples.

Results

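Chemokines and their receptors were followed gene by gene through 4 single-cell libraries of mouse cortex and mouse glioblastoma. Members were all genes whose symbol began with Ccl, Cxcl, Ccr, Cxcr or Ackr followed by a digit. The rule found 57 of the 32456 gene symbols in the 4 expression tables: 36 ligands, 17 signalling receptors and 4 atypical receptors. Of these, 39 were listed for PDGFRa-GFP cortex, 51 for hGFAP-GFP cortex, 39 for the first tumour and 57 for the second, and 29 were in all 4 tables. In at least 1 library 33 members reached 50 UMIs, the unique molecular identifiers that each tag 1 captured transcript. Another 21 members had between 1 and 49 UMIs at most, and Ccl21b, Ccl21c and Ccr8 had none.

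Chemokines are small secreted proteins that direct the movement of leukocytes and of migrating neural cells through G protein-coupled receptors. CC and CXC ligands differ in the spacing of their first cysteines, most inflammatory ligands bind several receptors, and the atypical receptors take up ligand without G protein signalling. In brain tissue, microglia and infiltrating macrophages are known producers of inflammatory CC chemokines, and Cxcl12 with its receptor Cxcr4 is known for guiding migrating cells and for its place at blood vessels.

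The first cortex library came from mice of strain PDGFRa-gfp, genotype listed as PDGFRa normal, at postnatal days 1 to 3, and the second from hGFAP-gfp mice, listed as hGFAP normal, at postnatal days 5 to 6. Both were cortex cells sorted for GFP and for exclusion of the dead-cell dye 7-AAD. The GFP reporter was driven from Pdgfra in the first and from a human GFAP promoter in the second. Whether every sorted cell carried the reporter was not tested. The tumour libraries came from mouse glioblastoma of the cortex at dpi 25 and dpi 35, a time unit the labels do not expand, with red cells lysed and no sort described. The labels give the genotype GBM at dpi 35 and do not name the tumours' driver. The cortex and dpi 25 libraries were made by Drop-seq and the dpi 35 library on the 10x platform, so time and platform cannot be told apart between the tumours. Each group was 1 library, with the number of mice not given, so no comparison between groups has a replicate check and no test was made. The intervals printed below are 95% intervals for counting error only.

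The tables held 3184, 815, 4955 and 6054 cells in the order PDGFRa-GFP, hGFAP-GFP, dpi 25 and dpi 35, where the labels state 3184, 2000, 6796 and 6054. No cell barcode was shared between libraries. Median depth was 2013.5, 4167, 2063 and 6582 UMIs per cell. Cells were placed in classes by the share of a marker list with at least 1 UMI, with no chemokine gene among the markers. The reporter labels and the classes did not coincide. The PDGFRa-GFP library held 1061 cells of the oligodendrocyte precursor (OPC) class and 1525 of the neuron class, and the hGFAP-GFP library 213 of the astrocyte class and 278 of the neuron class. At dpi 25 and dpi 35 the OPC class had 3390 and 1583 cells, the myeloid class 336 and 2746, and the endothelial class 79 and 110. Cells with markers of more than 1 class formed a mixed group of 596 and 1368 cells that may hold doublets, which were not called. Only 4 cells, all at dpi 35, had at least 3 T or NK cell markers.

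Many members sit in tandem clusters: 14 of the family are on chromosome 11, 12 on 9 and 10 on 5. Ccl2, Ccl7, Ccl11, Ccl12, Ccl8 and Ccl1 lie between 82035577 and 82179812 on chromosome 11 (GRCm38.p6), and Ccl5, Ccl9, Ccl6, Ccl3 and Ccl4 between 83525778 and 83664683. Cxcl3, Cxcl1 and Cxcl2 lie between 90759298 and 90905938 on chromosome 5, and Cxcl9 and Cxcl10 between 92321331 and 92348889. The stretches printed next precede the RefSeq start sites (build GRCm38.p6) of the Cxcr2 ligands Cxcl1, Cxcl2 and Cxcl3 and of Cxcl10. These genes are shown because they differed between myeloid subsets or tumour times in the values that follow. Ccl3 and Ccl12 are added as CC ligands of the myeloid class. They too differed between the myeloid subsets at dpi 35, so they are not a set of unchanged genes. Each runs 5′ to 3′ on the gene's strand and ends at the base before the start. Capitals mark matches on either strand to the NF-kappaB consensus and, in Cxcl10, to the interferon-stimulated response element (ISRE), GAAANNGAAA.
Cxcl1 (chr5:90891075-90891244, plus strand): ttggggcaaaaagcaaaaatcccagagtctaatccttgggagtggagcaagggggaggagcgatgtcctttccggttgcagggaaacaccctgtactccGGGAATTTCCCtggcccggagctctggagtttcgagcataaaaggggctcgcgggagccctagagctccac
Cxcl2 (chr5:90903729-90903898, plus strand): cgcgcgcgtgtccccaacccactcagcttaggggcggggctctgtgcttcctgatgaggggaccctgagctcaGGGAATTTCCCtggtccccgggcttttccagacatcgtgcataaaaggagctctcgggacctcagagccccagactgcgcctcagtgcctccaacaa
Cxcl3 (chr5:90785931-90786100, plus strand): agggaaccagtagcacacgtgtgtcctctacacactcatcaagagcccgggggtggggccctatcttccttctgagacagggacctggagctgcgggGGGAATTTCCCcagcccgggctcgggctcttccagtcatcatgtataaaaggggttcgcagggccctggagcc
Cxcl10 (chr5:92348890-92349119, minus strand): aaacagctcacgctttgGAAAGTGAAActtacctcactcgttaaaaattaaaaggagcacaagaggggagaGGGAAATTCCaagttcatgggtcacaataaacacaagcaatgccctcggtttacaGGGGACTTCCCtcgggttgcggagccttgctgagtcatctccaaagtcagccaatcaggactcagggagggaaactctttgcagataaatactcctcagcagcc
Ccl3 (chr11:83649379-83649548, minus strand): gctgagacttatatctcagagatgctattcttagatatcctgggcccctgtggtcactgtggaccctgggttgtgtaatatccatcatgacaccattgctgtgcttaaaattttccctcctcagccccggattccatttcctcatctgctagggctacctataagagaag
Ccl12 (chr11:82101675-82101844, plus strand): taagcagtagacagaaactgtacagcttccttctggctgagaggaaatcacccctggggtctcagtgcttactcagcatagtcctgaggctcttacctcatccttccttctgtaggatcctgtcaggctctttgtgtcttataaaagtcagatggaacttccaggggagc

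Cxcl1, Cxcl2 and Cxcl3 share the letters GGGAATTTCCC, which start 71, 97 and 73 bases before the RefSeq start. In Cxcl10 the ISRE letters are GAAAGTGAAA and NF-kappaB matches start 159 and 104 bases before the start. The stretches of Ccl3 and Ccl12 hold neither motif. Over windows of 300 bases (250 before to 50 after a start), NF-kappaB letters were in 10 of 42 members with a listed promoter (23.8%) and 8.86% of 17491 genes. ISRE letters were in 3 of the 42 (7.14%), Ccl19, Cxcl10 and Cxcl14, and in 3.40% of genes. A match is a description of the letters, not a bound site, and its absence says only that the letters are not in the window. The printed genes were chosen with their values known, and a link between letters and levels was not tested.

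Member transcripts made up a larger share of the tumour libraries than of the cortex libraries. Summed over the family, the level was 137 UMIs per 1000000 UMIs of the library (CPM) in PDGFRa-GFP, 161 in hGFAP-GFP, 489 at dpi 25 and 2335 at dpi 35. At least 1 member UMI was found in 19.3%, 43.1%, 39.3% and 86.8% of cells. After each cell was thinned to 1000 UMIs, the shares were 9.72%, 15.1%, 23.1% and 52.1%, with 500 PDGFRa-GFP cells too shallow to enter. PDGFRa-GFP was lowest and dpi 35 highest both ways, while thinning moved hGFAP-GFP from above dpi 25 to below it. Levels were not divided by transcript length, so each gene is compared with itself across groups and not with other genes.

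Among the ligands of Ccr2, a receptor of circulating monocytes, the cortex libraries held almost no transcripts. Ccl12 had 2 UMIs in PDGFRa-GFP (0.245 CPM), 1 in hGFAP-GFP (0.238 CPM), 1168 at dpi 25 (101 CPM, interval 95.5 to 107) and 39822 at dpi 35 (778 CPM, 770 to 786). Ccl2 had 8 UMIs in PDGFRa-GFP, none in hGFAP-GFP, 532 at dpi 25 (46.1 CPM) and 7681 at dpi 35 (150 CPM). Both genes were thus low in each cortex library and higher in each tumour library. The related Ccl7 was at 8.49 and 13.6 CPM in the tumours, and Ccl8 at 1.56 and 4.14 CPM.

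The inflammatory ligands Ccl3, Ccl4 and Ccl9, which attract monocytes and related cells, differed between the cortex libraries, and Ccl6 had too few UMIs there for a call. Ccl3 was at 10.8 CPM in PDGFRa-GFP (88 UMIs), 0.477 CPM in hGFAP-GFP (2 UMIs), 24.4 CPM at dpi 25 and 304 CPM at dpi 35. Ccl4 was at 12.9, 0.477, 25.8 and 349 CPM. In PDGFRa-GFP, 83 of the 88 Ccl3 UMIs and 102 of the 105 Ccl4 UMIs lay in 6 cells of the myeloid class, a class with no cell in hGFAP-GFP. Ccl6 was at 1.84, 0.238, 37.8 and 120 CPM, and Ccl9 at 2.94, 0, 11.8 and 89.4 CPM. Here, too, 13 of the 15 Ccl6 UMIs and 20 of the 24 Ccl9 UMIs of PDGFRa-GFP were in those 6 myeloid cells. Ccl5, which attracts T cells and monocytes, was at 0.367 CPM in PDGFRa-GFP, 2.60 at dpi 25 and 35.6 at dpi 35. Ccr1, a receptor of Ccl3, Ccl6 and Ccl9, was low in both cortex libraries and higher in both tumours. It was at 0.245, 0.477, 10.5 and 27.2 CPM. Ccr2 was at 0.490, 0.953, 1.21 and 12.9 CPM.

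**Figure D1:**
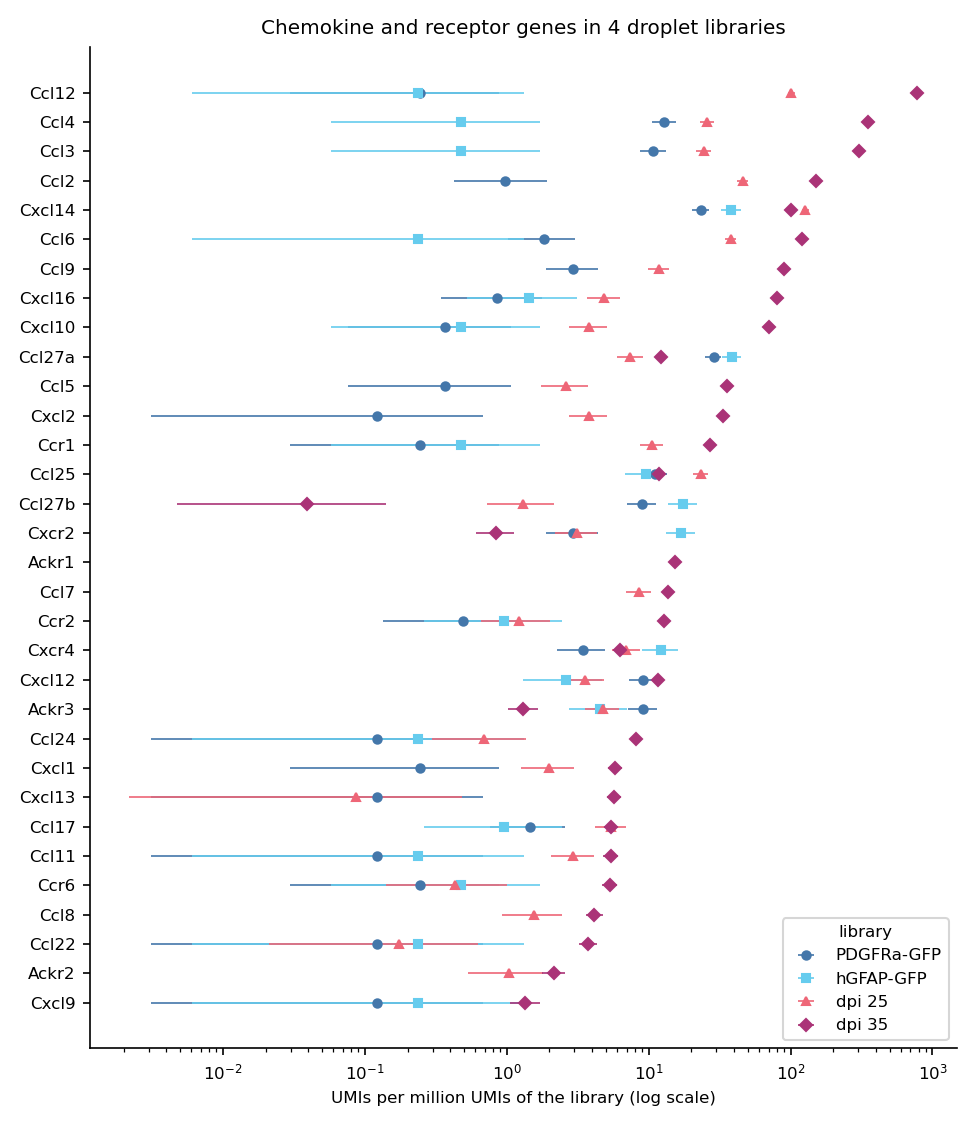
Level of members with at least 50 UMIs in a library, in CPM on a log axis, with 95% intervals for counting error; points are absent where a table lacks the gene or the count is 0. Most inflammatory ligands lie to the left in cortex and to the right in the tumours, while Ccl27a, Ccl27b, Cxcr2 and Ackr3 do not follow that order. The Drop-seq libraries list Ackr1 as Darc, which is not shown.

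Between the Drop-seq libraries, 18 of the 23 members with at least 20 summed UMIs were at least 2-fold higher at dpi 25 than in PDGFRa-GFP cortex, where 16.2% of all genes were, and 3 were at least 2-fold lower, where 16.6% of all genes were. The median log2 difference was 2.41 over these members and -0.01 over all genes. The 20 UMIs were summed over both libraries. Members with few cortex UMIs, such as Ccl12 with 2 and Cxcl2 with 1, thus entered through their tumour counts. The count of 18 and the median partly rest on this filter, which the other comparisons share. Ccl12 differed by log2 8.69 (interval 6.83 to 11.74), Ccl2 by 5.56 (4.57 to 6.78), Ccl6 by 4.36 (3.62 to 5.21) and Ccr1 by 5.42 (3.54 to 8.48). Ccl3 and Ccl4 differed less, by 1.18 (0.83 to 1.54) and 1.01 (0.68 to 1.34). The 3 lower members were Ccl27a (-1.94), its close relative Ccl27b (-2.78) and Cxcl12 (-1.37). Because these are whole libraries, more cells of a class and more RNA per cell cannot be told apart here.

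Against hGFAP-GFP cortex, the same dpi 25 library had 15 of 22 members at least 2-fold higher (17.2% of all genes) and 3 lower (20.5% of all genes). Ccl2 was at least 64.5-fold higher, taking 3 UMIs as the limit for its count of 0, and Ccl9 at least 16.5-fold higher. Ccl3 and Ccl4 differed by log2 5.68 (3.81 to 8.73) and 5.76 (3.89 to 8.81). Ccl27a (-2.37), Ccl27b (-3.74) and the neutrophil chemokine receptor Cxcr2 (-2.44) were lower. Both comparisons share the dpi 25 library, so they are not independent. The myeloid class, 6 cells in PDGFRa-GFP, none in hGFAP-GFP and 336 at dpi 25, moved with these counts, and the cortex cells were sorted for GFP while no sort is described for the tumours; their part in the counts was not tested.

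Between the cortex libraries, 5 of 12 members were at least 2-fold higher in PDGFRa-GFP (4.85% of all genes) and 3 were lower (12.7% of all genes). Ccl3, Ccl4 and Ccl9, with their UMIs in 6 myeloid cells, were 3 of the higher members, and Cxcl12 (log2 1.81) and Ackr3 (1.0) the others. Of the 75 Cxcl12 UMIs in PDGFRa-GFP, 54 were in 12 cells of the fibroblast class. Cxcr2 (-2.53) and Cxcr4 (-1.83) were lower in PDGFRa-GFP than in hGFAP-GFP. Strain, age and depth change together between these libraries.

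In both tumours the inflammatory CC ligands were carried mainly by the myeloid class. At dpi 25, 13 of the 23 members with at least 20 UMIs were at least 4-fold higher in CPM in the myeloid class than in all other cells, where 7.64% of all genes were. At dpi 35 it was 22 of 36, where 6.73% of all genes were, with Ccl17, Ccl22 and Ccr7 resting largely on 1 cell. The median log2 difference of the members was 4.28 and 3.00 at the respective times, and that of all genes was -0.53 and -0.77. The other cells include the mixed group, of which 318 cells at dpi 35 had myeloid and OPC markers together.

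Ccl12 stood at 1289 CPM in the myeloid class and 8.31 CPM in other cells at dpi 25, and at 1527 against 86.7 CPM at dpi 35. Ccl4 was at 350 against 0.467 CPM at dpi 25 and at 688 against 36.8 CPM at dpi 35. Ccl3 was at 330 against 0.560 CPM and at 600 against 30.7 CPM. For each of these ligands the myeloid level far exceeded the rest at both times, and the remainder was higher at dpi 35. Ccl6 was at 495 against 2.05 CPM and at 232 against 16.9 CPM, and Ccl2 at 363 against 21.3 CPM and at 276 against 33.6 CPM. The receptors shared the class of their ligands. Ccr1 was at 141 against 0.280 CPM at dpi 25 and 51.3 against 4.92 CPM at dpi 35, and Ccr2 at 23.2 against 3.38 CPM at dpi 35. A fixed list held 20 genes of chemokine receptor signalling (G protein subunits, arrestins, RGS proteins, Rac and its activators). Of these, 12 passed 4-fold higher in the myeloid class at dpi 25 (7.64% of all genes) and 12 at dpi 35 (6.73% of all genes). None was 4-fold lower, a direction for which no share of all genes is given. Those that passed at both times include Rac2, Itgb2 and Was, which leukocytes in general express.

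Some of the reading outside the myeloid class was at the level that myeloid markers themselves reached there. In the OPC class, the 15 myeloid markers stood at a median of 0.356% of their myeloid CPM at dpi 25 (range 0.224% to 1.05%) and of 1.67% at dpi 35 (0.631% to 2.24%). Ccl12 in the OPC class stood at 0.309% and 1.28% of its myeloid level, inside those ranges, and the source of its UMIs there was not tested. Ccl2 was at 0.858% (0.546% to 1.29%) at dpi 25, inside the range, and at 4.30% (3.59% to 5.12%) at dpi 35, above it. Of the 131 Ccl2 UMIs in the OPC class at dpi 35, 75 were in 1 cell. Ccl5 had 9 of its 30 UMIs at dpi 25 in 6 OPC-class cells. Cxcl2 had 63 of its 1701 UMIs at dpi 35 in 22 OPC-class cells, with 38 UMIs in 1 cell. Cxcl10 in the OPC class at dpi 25 had 28 UMIs in 7 of 3390 cells, 12 of them in 1 cell that had no myeloid marker and 5 of 12 OPC markers. At dpi 25, Ccl2 also had 27 UMIs in 4 of the 13 cells of the mural class, the cells that wrap vessels, and 152 UMIs in 16 mixed cells.

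**Figure D2:**
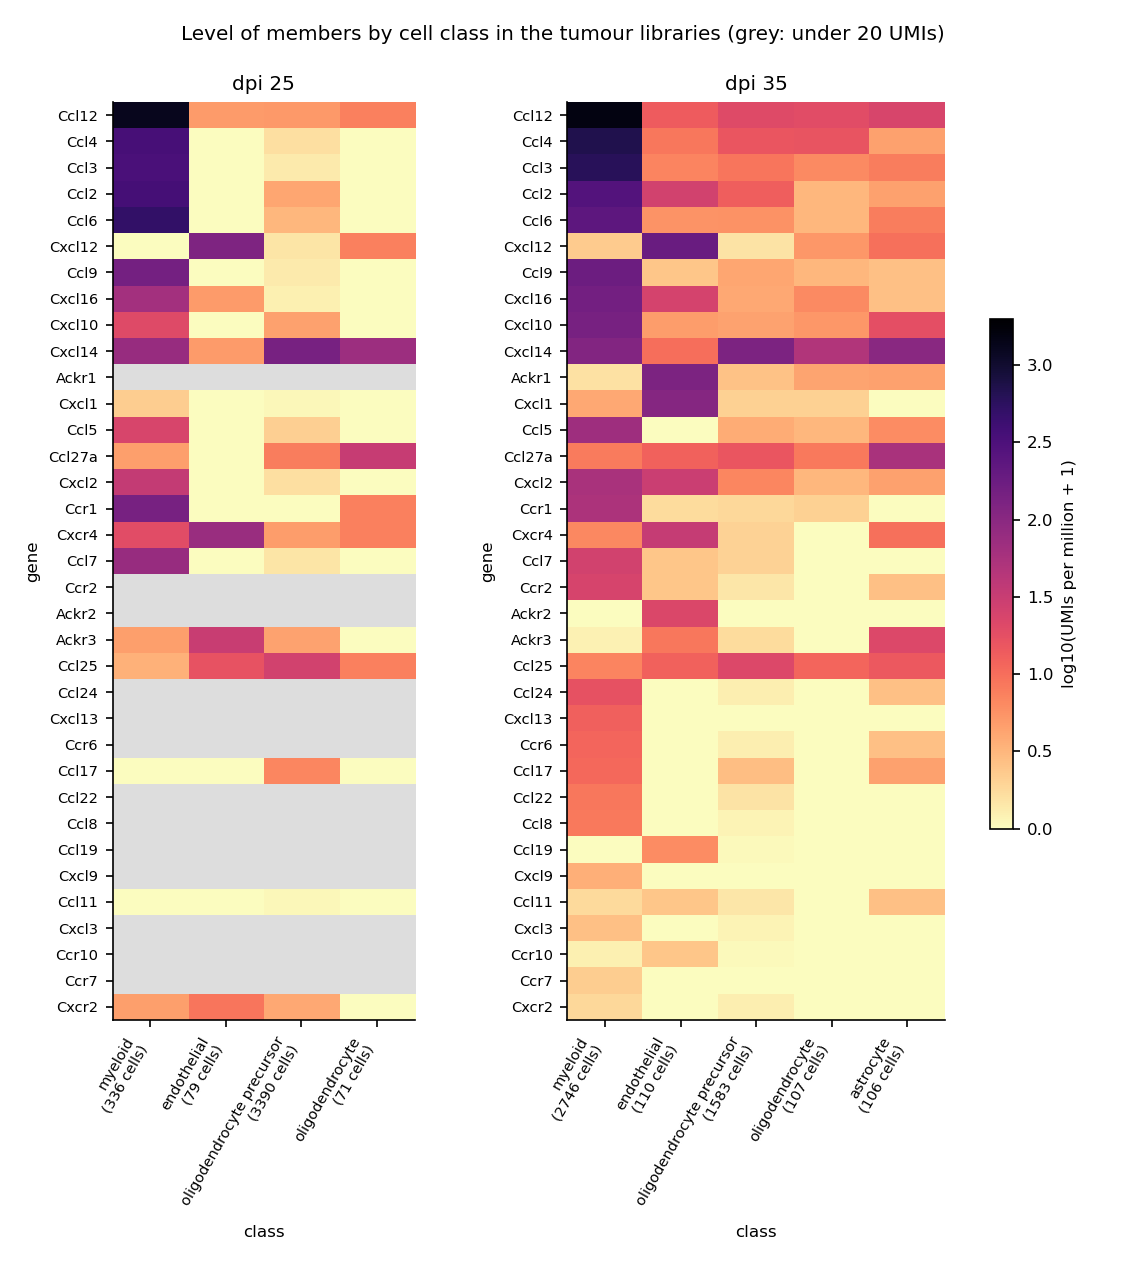
Level of members with at least 20 UMIs in a tumour library, by cell class, as log10 of CPM plus 1; grey marks genes under 20 UMIs in that library. The myeloid column is darkest for most CC ligands, the endothelial column for Cxcl12, Ackr1 and Cxcl1 at dpi 35, and Cxcl14 is dark in the OPC and myeloid columns.

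Within the myeloid class, the family divided between cells with microglia markers and cells with macrophage markers. At dpi 25, where the subsets held 134 and 152 cells, 5 of 12 members were at least 2-fold higher in the macrophage subset (5.03% of all genes) and none was 2-fold lower (5.16% of all genes). Ccl7 was at 143 against 15.7 CPM (log2 3.18, interval 1.87 to 4.86), Ccl6 at 769 against 185 CPM (2.05, 1.64 to 2.48), Ccl9 at 210 against 84.9 CPM (1.31) and Ccr1 at 197 against 88.0 CPM (1.17). The fifth was Cxcl2, a ligand of Cxcr2, at 1.46 (0.09 to 3.07). Ccl12, at 1182 and 1358 CPM, was within 2-fold in the subsets.

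At dpi 35, with 2258 microglia-subset and 343 macrophage-subset cells, 13 of 30 members were at least 2-fold higher in the macrophage subset (5.59% of all genes) and 6 were lower (10.4% of all genes). Ccr2 was at 160 CPM in the macrophage subset and 3.84 CPM in the microglia subset (log2 5.38, 5.03 to 5.75). Ccr1 was at 157 against 35.1 CPM (2.16), Cxcr4 at 20.6 against 3.36 CPM (2.62), Cxcl2 at 224 against 28.6 CPM (2.97) and Ccl5 at 158 against 52 CPM (1.60), which turned to -0.44 (-0.75 to -0.14) with markers read at 1000 UMIs per cell. Cxcl3, another Cxcr2 ligand, was at least 101-fold higher, with 41 UMIs against none. The microglia subset was the higher one for Ccl12 (1706 against 490 CPM, log2 -1.80), Ccl3 (657 against 264 CPM, -1.31), Ccl4 (749 against 333 CPM, -1.17) and, on 1 UMI in the macrophage subset, the B cell attractant Cxcl13 (-5.13). Ccr6 was lower as well (-4.11).

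A few cells decided part of the macrophage count. When the cell with the most UMIs of each member was left out on each side, the members at least 2-fold higher at dpi 35 numbered 8 in place of 13. One cell held 162 of the 278 Ccl17 UMIs, 174 of the 192 Ccl22 UMIs and 28 of the 36 Ccr7 UMIs of the dpi 35 library. This cell, of 9784 UMIs, had 5 of 15 myeloid markers, 1 of 10 dendritic markers and all 4 of the MHC class II markers. Ccl17 and Ccl22 attract T cells through Ccr4, and Ccr7 guides maturing dendritic cells to lymph nodes. With the richest cell of each subset left out, Ccl17 was still log2 6.59 higher in the macrophage subset (4.59 to 9.71), and Ccl5 was 0.70 higher in place of 1.60. Among 300 myeloid cells with MHC class II markers at dpi 35, 6 of 30 members were at least 2-fold higher than in other myeloid cells (1.97% of all genes), with Ccl22 (log2 9.22), Ccl17 (8.62) and Ccr7 (7.57) resting largely on the same cell, and 2 were lower (5.43% of all genes), Ccl8 (-1.72) and Cxcl12 (-2.20).

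**Figure D3:**
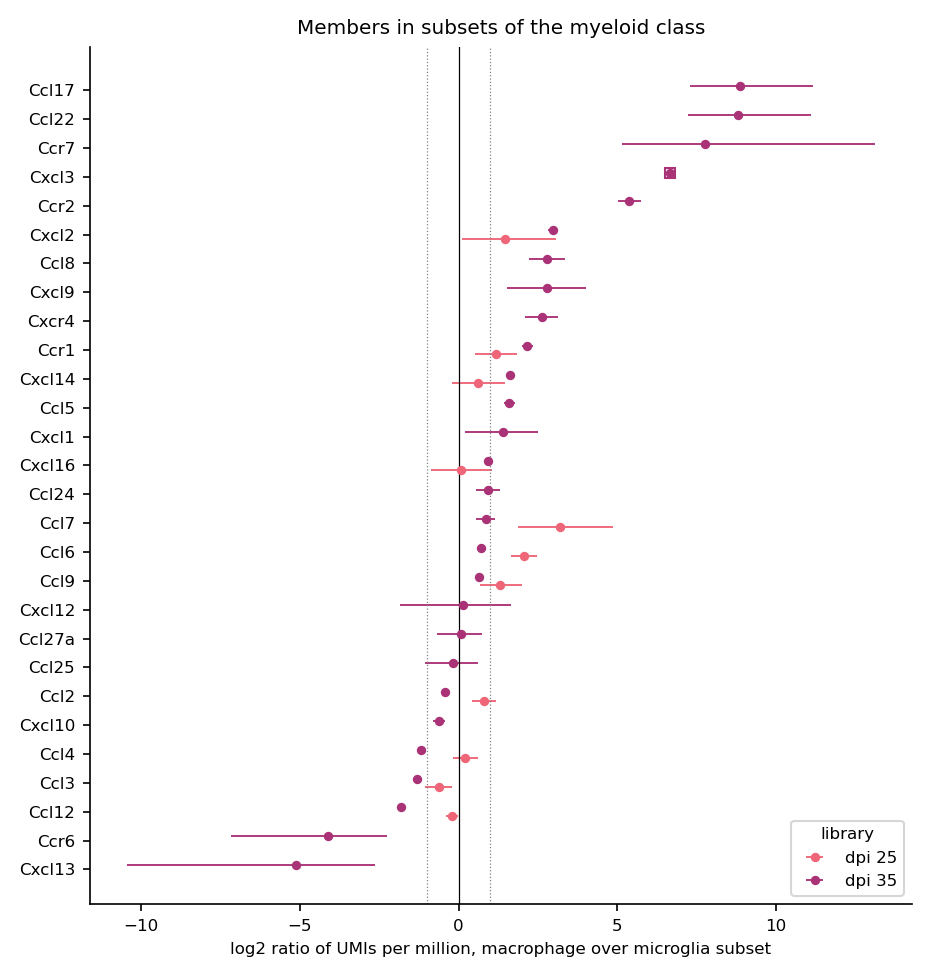
Log2 ratio of CPM in the macrophage subset over the microglia subset of the myeloid class, with 95% intervals for counting error, at dpi 25 and dpi 35; dotted lines mark 2-fold and the square a lower bound. Ccr2, Ccr1 and Cxcl2 lie to the right at dpi 35, and Ccl12, Ccl3 and Ccl4 to the left.

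Between the tumour times, 10 of 28 members were at least 2-fold higher in the myeloid class at dpi 35 (8.64% of all genes) and 6 were lower (25.6% of all genes). The median log2 difference was 0.70 over the members and -0.41 over all genes. Cxcl10, an interferon-induced ligand of Cxcr3, was at 19.1 CPM (16 UMIs in 4 cells) at dpi 25. At dpi 35 it was at 140 CPM (3446 UMIs), a log2 difference of 2.88 (2.17 to 3.68). Ccl5 was at 22.7 and 67.3 CPM (1.57, 0.92 to 2.30) and Cxcl16, a membrane-bound ligand of Cxcr6, at 62.1 and 153 CPM (1.30, 0.90 to 1.72). Cxcl13 was at 1.20 CPM on 1 UMI and 11.8 CPM (3.3, 0.82 to 8.61). Leaving out the richest cell of each time took Cxcl13 to a lower bound of 1.43. The remaining higher members were Ccl17 (at least 2.77-fold), Ccl22 (at least 2.09-fold), Ccl24 (1.14, 0.00 to 2.59), and Ccl25, Cxcl1 and Ccr6, whose intervals included 0. One cell held 162 of the 244 myeloid Ccl17 UMIs and 174 of the 184 myeloid Ccl22 UMIs at dpi 35, so both calls rest largely on that cell.

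The lower members were Ccl6, at 495 and 232 CPM (log2 -1.10, -1.24 to -0.95), Ccr1, at 141 and 51.3 CPM (-1.46, -1.73 to -1.18), Ccl7, at 75.3 and 25.3 CPM (-1.57), Ccl8 (-1.47), Cxcr4 (-1.68) and Cxcr2 (-2.14, interval -3.89 to 0.26). Ccl12 (0.24), Ccl9 (0.22), and Ccl2 (-0.39) stayed within 2-fold, as did Ccl3 (0.86) and Ccl4 (0.97). The makeup of the class moved with these values, since the macrophage subset was larger than the microglia subset at dpi 25 and smaller at dpi 35. In the microglia subset alone, Ccl6 (0.24, -0.13 to 0.63) and Ccl7 (0.59, -0.65 to 2.21) were no longer lower, while Ccr1 (-1.33, -1.87 to -0.73), Cxcl10 (3.56, 2.20 to 5.43), Ccl5 (1.73) and Cxcl16 (1.25) kept their direction. In the macrophage subset alone, Ccl6 (-1.10, -1.29 to -0.91) and Ccl7 (-1.73, -2.21 to -1.25) were lower at dpi 35. There, Ccr2 was higher at dpi 35 (2.25, 1.46 to 3.17), and Ccl12 (-1.27, -1.42 to -1.11) and Ccl2 (-1.12) were lower. Ccr1 in the macrophage subset differed by -0.33 (-0.69 to 0.04).

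Of the fixed gene lists, the immediate early genes had the largest median difference between the times. Over all genes, 8.64% were at least 2-fold higher in the myeloid class at dpi 35 and 25.6% were lower. Of 14 immediate early genes, which respond within minutes to stimuli that include tissue dissociation, 7 were at least 2-fold higher in the myeloid class at dpi 35 and none lower (median log2 1.01), and their part in the chemokine values was not tested. Of 14 genes of inflammatory induction (cytokines, NF-kappaB and interferon pathway genes), 2 were higher and 3 lower (median 0.36). Of the 20 receptor signalling genes, 2 were higher and 2 lower (median -0.10). Of 8 chemokine system genes with other symbols, such as Cx3cr1 and Pf4, 2 were higher and 2 lower (median 0.14).

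**Figure D4:**
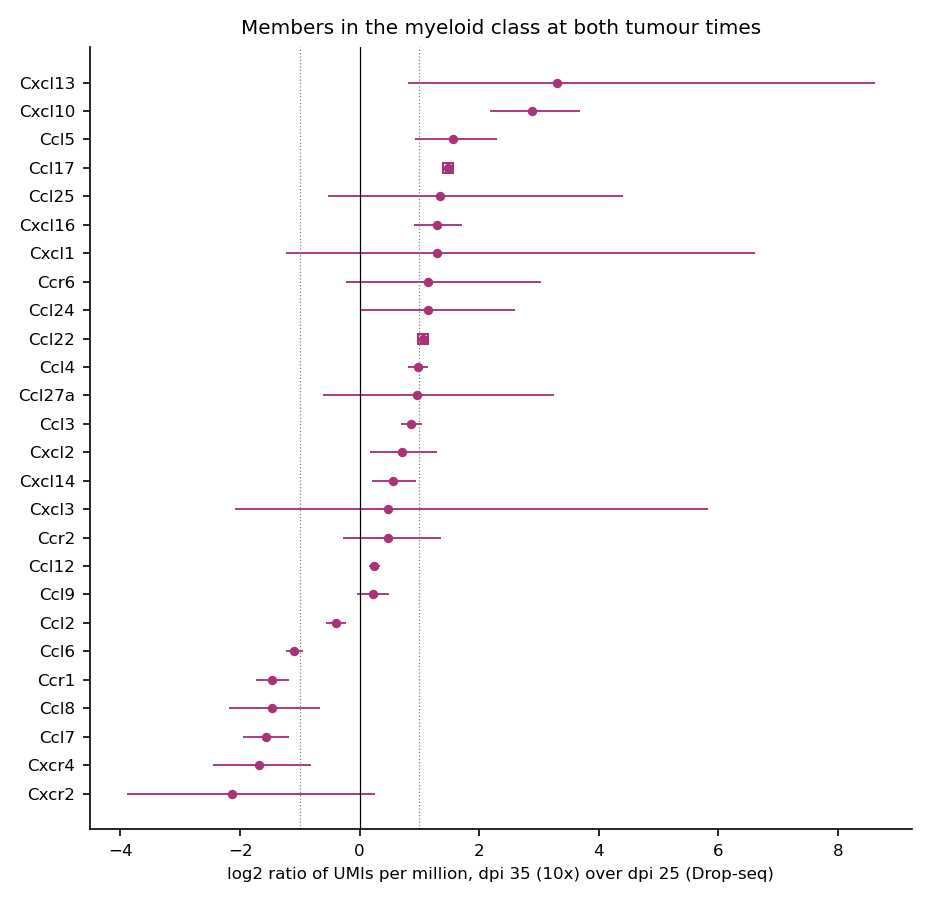
Log2 ratio of CPM in the myeloid class, dpi 35 (10x) over dpi 25 (Drop-seq), with 95% intervals for counting error; dotted lines mark 2-fold and squares mark lower bounds. Cxcl10 lies at 2.88 and Ccr1 at -1.46, and the intervals of Cxcl1, Ccl25, Ccr6 and Cxcr2 cross 0.

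Transcripts of a chemokine were unevenly spread among myeloid cells. The tenth of myeloid cells richest in the gene held 93.9% of Cxcl10 UMIs and 99.5% of Cxcl2 UMIs at dpi 35, against 60.4% for Ccl12 and 46.5% for Cxcl16. These shares depend on the mean level as well as on the spread between cells. For some ligands of 1 genomic cluster, 1 gene was detected more often in cells with the other than in cells without it. For others it was not. After thinning to 1000 UMIs, Ccl4 was detected in 32.8% of the 64 myeloid cells with Ccl3 and in 5.51% of the 272 without it at dpi 25, and in 48.9% of 794 and 15.8% of 1952 at dpi 35. Ccl7 was detected in 18.6% of the 70 cells with Ccl2 and in 1.5% of the 266 without it at dpi 25, and in 5.92% of 473 and 0.572% of 2273 at dpi 35. In the cluster of Ccl3 and Ccl4, by contrast, Ccl9 was detected in 12.5% of the cells with Ccl3 and 12.5% of those without it at dpi 25, and Ccl6 in 16.5% of the cells with Ccl4 and 15.8% of those without it at dpi 35. Across clusters, Ccl3 was detected in 31.4% of the cells with Ccl2 and 15.8% of those without it at dpi 25. Among cells with Cxcl10 at dpi 35, 64.2% of 165 had Ccl12, against 42% of the 2581 without it.

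Cxcl12 and its receptors were at a higher level in the endothelial class than in other cells. At dpi 25, 3 of 23 members were at least 4-fold higher in that class than in other cells (7.17% of all genes). Cxcl12 was at 124 against 0.797 CPM (log2 7.28, 6.18 to 8.53), Cxcr4 at 73.7 against 5.40 CPM (3.77, 2.94 to 4.53) and the scavenging receptor Ackr3, which also binds Cxcl12, at 31 against 4.16 CPM (2.90, 1.61 to 3.99). Of the 32 endothelial Cxcl12 UMIs at dpi 25, 10 were in 1 cell. At dpi 35 these 3 genes were again at least 4-fold higher in the endothelial class: Cxcl12 at 183 against 7.02 CPM (4.70), Cxcr4 at 33.1 against 5.60 CPM (2.56) and Ackr3 at 7.52 against 1.14 CPM (2.72). In numbers of UMIs the small endothelial class held 44 of the 323 Cxcr4 UMIs and 10 of the 67 Ackr3 UMIs of that library, and the myeloid class 137 Cxcr4 UMIs.

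At dpi 35, 7 of 36 members passed 4-fold in the endothelial class (6.35% of all genes). Ackr1, a marker of venules that displays chemokines on the vessel wall, was at 126 against 12.5 CPM (3.33), and Ackr2, a scavenger of CC ligands, at 21.1 against 1.64 CPM (3.68). The mixed cells held 585 of the 790 Ackr1 UMIs, 80 of the 110 Ackr2 UMIs and 298 of the 593 Cxcl12 UMIs. One mixed cell of 68946 UMIs, with 12 of 14 endothelial and 13 of 15 myeloid markers, held 336 Ackr1 UMIs. The Drop-seq libraries list Ackr1 under its older symbol Darc, at 5.14 CPM in PDGFRa-GFP, 3.10 in hGFAP-GFP and 3.81 at dpi 25. The symbol rule does not match Darc, so those UMIs are in no member count or sum. Ccl19, a Ccr7 ligand, passed on 7 UMIs (4.13). Cxcl1 passed at 107 against 3.13 CPM, but 138 of its 142 endothelial UMIs were in 1 cell, and without that cell the difference was 0.26 (-1.63 to 1.66). Ccl11, an eosinophil attractant, lay in few cells: 53 of its 276 UMIs were in 5 of 7 mural-class cells and 196 in 14 mixed cells at dpi 35, and 8 of 34 UMIs in 2 of 13 mural-class cells at dpi 25.

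Cxcl14, a ligand without an agreed receptor, was at 23.3 CPM in PDGFRa-GFP (20.1 to 26.8), 38.1 in hGFAP-GFP (32.5 to 44.5), 127 at dpi 25 (121 to 134) and 101 at dpi 35 (98.3 to 104). In PDGFRa-GFP the OPC class held 146 of its 190 UMIs, at 52.3 CPM (44.1 to 61.5) against 8.19 CPM in other cells (log2 2.67). It was the 1 of 12 members that passed 4-fold in that class, where 3.85% of all genes did. The astrocyte class stood at 57.9 CPM in PDGFRa-GFP, on 9 UMIs, and at 74.7 CPM (59.3 to 92.8) in hGFAP-GFP, where the OPC class was at 45.2 CPM (30.9 to 63.9). The neuron classes were low, at 3.41 and 1.75 CPM. In the tumours the OPC class was at 139 CPM (131 to 147) at dpi 25 and 127 CPM (121 to 134) at dpi 35, above the cortical OPC classes. The myeloid class held 76.5 CPM (58.9 to 97.7) and 113 CPM (108 to 117), so the OPC level was 181% and 113% of the myeloid level, with the median myeloid marker in the OPC class at 0.356% and 1.67%. At dpi 35 the macrophage subset stood at 262 CPM (244 to 282) and the microglia subset at 85.0 CPM (81.0 to 89.1). The endothelial class was at 3.88 and 9.03 CPM, on 1 and 12 UMIs.

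No member passed 4-fold in the OPC class of either tumour, 0 of 23 at dpi 25 (0.185% of all genes) and 0 of 36 at dpi 35 (3.95% of all genes). At dpi 25 the OPC class holds 3390 of the 4955 cells. Ccl25, a ligand of the thymus and gut, was at 25.6 CPM in the OPC class and 2.39 CPM in the myeloid class at dpi 25, and at 20.3 and 6.07 CPM at dpi 35. Of the 63 Ccl17 UMIs at dpi 25, 47 were in 47 OPC-class cells and none in the myeloid class, whereas at dpi 35 the myeloid class held 244 of 278, 162 of them in 1 cell with 5 of 15 myeloid markers. The log2 difference of Ccl17 between the myeloid class and other cells at dpi 35, 2.96, turned to -2.83 with a class margin of 2 and to -3.66 with markers read at 1000 UMIs per cell. Ccl27a was at 28.7, 38.6, 7.45 and 12.2 CPM over the 4 libraries and Ccl27b at 8.94, 17.4, 1.30 and 0.0391 CPM. These near-identical genes may exchange reads, so their separate values are uncertain.

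In the remaining classes few members passed. In PDGFRa-GFP, none of 12 passed in the astrocyte class (3.12% of all genes) or the neuron class (1.42%), and 1 passed in the ependymal or choroid class (5.91%). In hGFAP-GFP none of 7 passed in the OPC (1.86%), astrocyte (1.98%) or neuron class (1.39%). In the oligodendrocyte class, 1 of 23 passed at dpi 25 (3.85%), Ccl27a on 5 UMIs, and none of 36 at dpi 35 (5.30%). In the astrocyte class at dpi 35, 2 of 36 passed (9.49%): Ackr3 at 20.6 against 1.09 CPM (log2 4.25, 3.21 to 5.17) and Ccl27a at 55.1 against 11.8 CPM (2.23, 1.67 to 2.74). Ackr3 thus passed in the endothelial and the astrocyte class of the same library, on 10 and 12 UMIs.

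Cxcr2, the receptor of Cxcl1 and Cxcl2, was higher in hGFAP-GFP cortex than in any other library, at 16.9 CPM against 2.94 in PDGFRa-GFP, 3.12 at dpi 25 and 0.84 at dpi 35. Within hGFAP-GFP it was spread over classes rather than held by 1 of them: 22.6 CPM (12.9 to 36.7) in the OPC class, 12 (6.38 to 20.5) in the astrocyte class, 13.1 (7.34 to 21.6) in the neuron class and 23.9 (15.4 to 35.2) in mixed cells. In PDGFRa-GFP the OPC and neuron classes were at 2.86 and 2.84 CPM. Cxcr4 in hGFAP-GFP was at 18.4 CPM (11.3 to 28.5) in the astrocyte class and 2.62 CPM (0.541 to 7.67) in the neuron class, while in PDGFRa-GFP 19 of its 28 UMIs were in the neuron class.

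**Figure D5:**
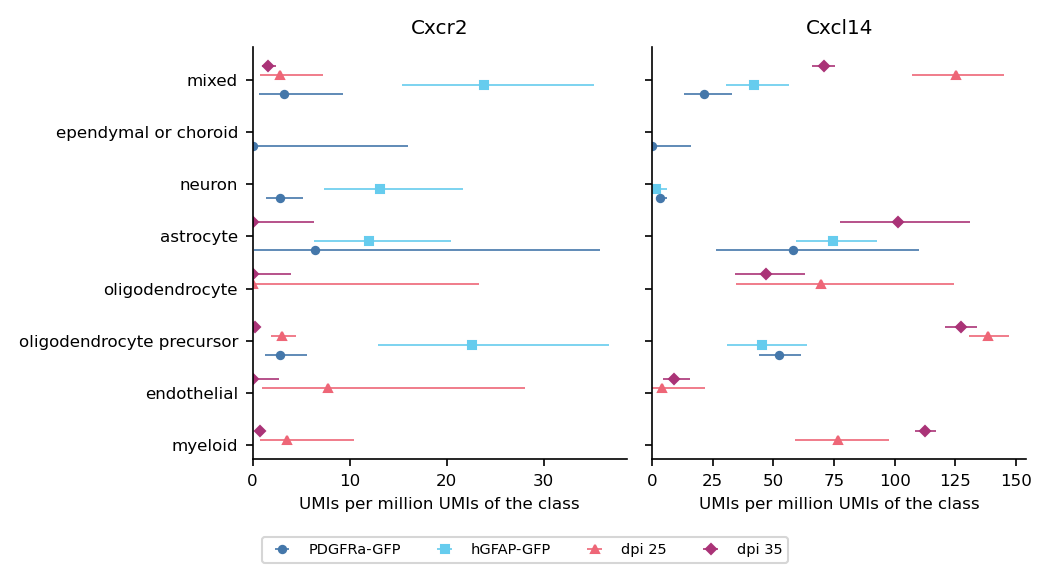
Level of Cxcr2 and Cxcl14 by cell class in the 4 libraries, in CPM of the class with 95% intervals for counting error. Cxcr2 in hGFAP-GFP lies between 12 and 23.9 in 4 groups of cells, and Cxcl14 lies above 100 in the OPC class of both tumours.

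A second assay, full-length sequencing of 223 sorted cortex cells on the C1 platform with levels in TPM (transcripts scaled to the same total in every cell), also detected Cxcr2. At 10 TPM or more it was found in 47 of 49 hGFAP-GFP cells at P3 (95.9%, exact interval 86.0% to 99.5%) and in 56 of 61 at P4/P6 (91.8%, 81.9% to 97.3%). In the separately normalised PDGFRa-GFP table it was found in 23 of 53 cells at P6 (43.4%, 29.8% to 57.7%) and 5 of 60 at P3 (8.33%, 2.76% to 18.4%). These shares depend on the threshold: at 1 TPM Cxcr2 was found in 50 of 53 (94.3%) and 43 of 60 (71.7%) PDGFRa-GFP cells and in 100% of both hGFAP-GFP sets. The cells of a set shared a preparation, and cells are not replicates of an age. The strain field of the PDGFRa-GFP cells reads hGFAP-gfp, against their titles, which were followed here.

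Of 30 ligand and receptor pairs fixed from textbook knowledge, 10 had both partners at 20 UMIs or more at dpi 25, and in 6 of these both were highest in the myeloid class among the classes of at least 30 cells, among them Ccl3, Ccl6 and Ccl9 with Ccr1. At dpi 35, 16 pairs had both partners. Among the same classes, 11 had both highest in the myeloid class, the added ones including Ccl2, Ccl7 and Ccl12 with Ccr2. The 11 also hold Ccl8 with Ccr2, a pairing less settled in mouse. Ccr2 itself had 14 UMIs at dpi 25, under the minimum. The mural class, with fewer than 30 cells, was left out of this ranking. It held 27 Ccl2 UMIs in 4 of 13 cells at dpi 25 and 46 in 7 of 7 cells at dpi 35. The myeloid class is thus not shown to have the highest Ccl2 level of all classes. Cxcl12 and Cxcr4 were both highest in the endothelial class at both times. For Cxcl10, Cxcl16 and Cxcl13, each highest in the myeloid class at dpi 35, the receptors Cxcr3, Cxcr6 and Cxcr5 had 7, 6 and 2 UMIs in that library. Expression of both partners by RNA does not show binding.

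Pooled open-chromatin intervals from PDGFRa-GFP cells of E14.5 and P5 cortex were fewer at the family than at other genes. An interval lay within 2 kb of 20 of the 57 members (35.1%), against 71.2% of 21883 genes. Among the CC ligands of the myeloid class, none lay within 2 kb of Ccl3, Ccl4, Ccl5, Ccl6, Ccl7, Ccl8, Ccl9 or Ccl12, while Ccl2 had 1, with the authors' fold over background of 5.56. Members of the endothelial class differed: Ackr1, Ackr2 and Ccl19 had none, and Ackr3 had 7 intervals, with a highest fold of 8.09. Ccr10, with 22 UMIs at dpi 35, had the family's highest fold (16.2, 5 intervals), Cxcl12 had 6 (5.06), Cxcr4 had 4 (5.56) and Ccl25 had 3 (11.6). Cxcr2, detected in cortex cells by both RNA assays, had no interval within 2 kb. Cxcl1 and Cxcl2 had 2 each (4.55 and 4.04), and Cxcl10 and Cxcl14 had 1 each (3.03 in both, with an authors' −log10 q of only 0.986), of which the Cxcl10 interval overlapped its listed promoter and the Cxcl14 interval did not. The intervals come from sorted cortex cells and 1 pooled list, so they say nothing of the tumours or of either age alone, and members in tandem clusters are not independent of each other.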

How the data were processed

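Single-cell RNA was measured in 4 droplet libraries and in 223 full-length C1 cells, and open chromatin in 2 samples. Per the submitters' processing notes, STAR (Drop-seq), Cell Ranger (10x), RSEM (C1), and Bowtie2, MACS2 and HOMER (chromatin) were used with build mm10, and rn5 is also named. The 10x values are UMI counts as deposited. The Drop-seq values are a signal that the authors scaled to 10000 per cell; whole UMIs were recovered from the steps between values in 100% of cells, within 0.1. The C1 values are TPM as deposited. The authors' peak list gives a score, a fold over background and a −log10 q per interval, 76321 intervals with 93170 summits.

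The members, marker lists, pathway lists and thresholds were chosen with earlier results of these data known. A cell took the class with the highest share of its markers, given at least 3 markers and 1.5 times the share of the next class; subsets needed 2 markers. The 10x rows that share a symbol were summed. UMIs were summed per class and divided by the class total; intervals are exact Poisson, conditional binomial for ratios and Clopper-Pearson for shares. Fold calls needed 20 summed UMIs and 2-fold between libraries or subsets, or 4-fold between a class of at least 30 cells and all other cells; a count of 0 was set to 3 UMIs for bounds. The rule names members with at least 50 UMIs in a library; those under it, such as Ccr7, Cxcl3, Ccl19 and Cxcr3, were named after their values were seen. On counts simulated as Poisson, the model that the intervals assume, the ratio intervals covered 95.7% of 12948 genes. All 200 changed genes were called, but their changes and counts were set well above the limits of 2-fold and 20 UMIs. Spread between cells was not simulated, so this checks the calculation and not the calls near those limits. Of simulated cells of 2000 UMIs, 100% of myeloid, 84% of OPC and 100% of endothelial cells were recovered. These cells were drawn from profiles of the first tumour's classes, which the same markers had set. Their recovery was thus largely fixed in advance and does not show that the classes are correct. The classes of the second tumour were not simulated. One member enters the counts and is not reported here by itself. No doublet caller was run. Python 3.11.15, numpy 2.4.6, scipy 1.17.1, pandas 2.3.3 and matplotlib 3.10.9 were used.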

Additional observations from a re-analysis of the deposited data

Results flagged for a closer look

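Within the myeloid class, 2 ligands lay on opposite sides of equality at the tumour times in the macrophage subset over the microglia subset. Ccl2 differed by log2 0.80 at dpi 25 and -0.42 at dpi 35, and Ccl4 by 0.21 and -1.17. The difference between times was not tested.

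The full-length C1 cells entered no fold call between groups, although their Cxcr2 shares were set side by side above. Some members were detected at 10 TPM in more cells than the 3 that a count of 0 allows. Among PDGFRa-GFP cells at P6, Ccl5 was found in 58.5%, Cxcr2 in 43.4%, Ackr1 in 9.43% and Ccl27a in 7.55%. The 31 Ccl5 cells had 10.6 to 49.1 TPM, the 5 Ackr1 cells 17.1 to 1373 TPM, and none of the C1 cells had 3 of the 15 myeloid markers at 10 TPM. Among PDGFRa-GFP cells at P3, Ccl27a and Cxcr2 were each found in 8.33%, and Ccl5 in none. The Ccl5 share depends on the threshold: at 1 TPM it was found in 49 of 53 cells at P6 (92.5%) and 0 of 60 at P3. The PDGFRa-GFP Drop-seq library, of postnatal days 1 to 3, held 3 Ccl5 UMIs. The Ccl5 signal was thus seen in 1 C1 set, and its source was not tested. Among hGFAP-GFP cells at P3, Cxcr2 was found in 95.9%, Cxcl14 in 14.3%, Cxcr4 in 14.3% and Ccl27a in 10.2%. Among hGFAP-GFP cells at P4/P6, Cxcr2 was found in 91.8%, Ccl27a in 19.7%, Cxcr4 in 9.84%, Ackr1 in 8.2% and Cxcl14 in 6.56%.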

How the results depend on the processing

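No paired analysis was possible because each droplet group is 1 library. Of the counts and shares recomputed, 116 kept within 1.5 times or within their interval and 18 did not; the causes were not tested unless named. A 4-fold in place of a 2-fold threshold, which is stricter by construction, left 1 of 3 members lower at dpi 25 than in PDGFRa-GFP, 3 of 5 higher and 1 of 3 lower between the cortex libraries, 2 of 10 higher and 1 of 6 lower in the myeloid class between times, 2 of 5 higher in the macrophage subset at dpi 25 and 2 of 6 lower at dpi 35; a 2-fold threshold for the other classes together gave 24 in place of 15. Dropping the deepest 5% of cells left 3 higher members between the cortex libraries, and a minimum of 5 UMIs gave 10 in place of 5 in the macrophage subset at dpi 25. Thinning to 1000 UMIs moved the share of cells with a member UMI to 9.72%, 15.1%, 23.1% and 52.1%. Added after the data were seen, leaving out the richest cell left 8 of 13 members in the macrophage subset at dpi 35, the microglia subset alone gave 6 higher and 3 lower between times, and overlap with a promoter left 10 of 20 members with an open interval. Members past the fold changed direction 13 times. In the myeloid class at dpi 35, Ccl17, Ccl22 and Ccr7 turned to -2.83, -4.02 and -3.76 with a class margin of 2, and to -3.66, -4.39 and -4.13 with markers read at 1000 UMIs; their richest cell holds 58.3%, 90.6% and 77.8% of these UMIs. Ccl5 turned to -0.44 in the macrophage subset at dpi 35 with markers at 1000 UMIs. Ackr1 in the astrocyte class, on 2 UMIs, went to 0.00888 without the deepest cells and to 0.10 with a margin of 2. In the microglia subset alone between times, Ccl6 was at 0.24, Ccl7 at 0.59, Ccr6 at -0.0143 and Cxcl1 at -1.21. Members under 20 UMIs gave no call, and a count of 0 in a library says only that a level above 3 UMIs was not seen.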
